A study of Mus musculus with 11 samples.

Results

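Expression of 9 cartilage and tendon lineage genes was followed in RNA-seq libraries of mouse mesenchymal stem cells (MSCs, cultured stromal cells that can form bone, cartilage and fat). The genes were taken by name from the count table: Sox9, Sox5, Sox6, Acan, Comp, Scx, Tnmd, Mkx and Cilp, which are 9 of its 28222 genes. All of them were detected in each of the 11 libraries and passed the filter on low counts in every comparison.

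Young MSCs came from mice of 3 to 5 months and old MSCs from mice aged 18 to 22 months. The oxygen level was 2% for all of them. The labels give 3 batches without saying what a batch was, namely A with 4 young libraries, B with 2 young and 2 old, and C with 3 old ones. Genotype, sex and treatment other than the oxygen level are not given for these libraries in the sources used here, and nothing says that replicates came from separate mice or cultures, so p-values measure only the spread between these samples, which may be technical.

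Sox9 is the transcription factor without which cartilage does not form. Sox5 and Sox6 are its close relatives, which lack an activation domain of their own and help Sox9 to switch on cartilage matrix genes. Acan encodes aggrecan, the large proteoglycan that holds water in cartilage, and Comp encodes cartilage oligomeric matrix protein, a thrombospondin family glycoprotein of cartilage, tendon and ligament. Scx (scleraxis) and Mkx (mohawk) are transcription factors of developing tendon, Tnmd (tenomodulin) is a membrane protein used as a marker of mature tendon cells, and Cilp encodes a matrix protein of the intermediate layer of cartilage.

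Sox6 and Acan lie on the same chromosome, far from each other (GRCm38, GENCODE M21). Sox9 occupies chr11:112782224-112787760, Sox5 chr6:143828425-144781977, Sox6 chr7:115470872-116038796, Acan chr7:79053483-79115099, Comp chr8:70373558-70382066, Scx chr15:76457452-76459458, Tnmd chrX:133850980-133865577 and Cilp chr9:65265180-65280605. Scx lies within the span of Bop1 on the opposite strand, but their exons do not overlap. The antisense genes within Sox5 and Sox6 had between 0 and 6 counts over all libraries together.

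Promoter sequences of 4 genes are shown because these genes moved in pairs: Sox5 and Sox6 both fell in the age comparison, and Tnmd and Cilp were both lower in young MSCs of batch B than of batch A. Each runs from 250 bases before to 50 bases after an annotated start, as given by RefSeq on GRCm38.p6, and is written 5′ to 3′ on the strand of the gene. The RefSeq table matched 5 of the 9 genes, and no promoter is shown for Sox9, Comp, Scx and Mkx. For Sox6 the most upstream of 6 starts was taken. The only Sox5 window matched lies inside the gene, far downstream of its GENCODE upstream end at 144781977. Capitals mark the SOX core ACAAT on either strand and the E-box CANNTG, the kind of site that scleraxis and other basic helix-loop-helix factors bind.
Sox5 (chr6:143947057-143947356, minus strand): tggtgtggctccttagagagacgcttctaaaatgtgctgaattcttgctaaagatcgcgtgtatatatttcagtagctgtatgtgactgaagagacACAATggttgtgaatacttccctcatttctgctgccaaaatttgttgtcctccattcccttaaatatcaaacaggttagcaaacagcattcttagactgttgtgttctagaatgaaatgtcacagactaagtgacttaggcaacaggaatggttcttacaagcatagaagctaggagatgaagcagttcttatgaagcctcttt
Sox6 (chr7:116038695-116038994, minus strand): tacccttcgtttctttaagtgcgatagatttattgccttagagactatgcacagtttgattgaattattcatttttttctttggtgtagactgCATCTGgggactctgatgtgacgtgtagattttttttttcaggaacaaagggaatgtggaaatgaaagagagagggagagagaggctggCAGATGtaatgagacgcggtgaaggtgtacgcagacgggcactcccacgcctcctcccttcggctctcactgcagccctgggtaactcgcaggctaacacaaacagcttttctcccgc
Tnmd (chrX:133850758-133851057, plus strand): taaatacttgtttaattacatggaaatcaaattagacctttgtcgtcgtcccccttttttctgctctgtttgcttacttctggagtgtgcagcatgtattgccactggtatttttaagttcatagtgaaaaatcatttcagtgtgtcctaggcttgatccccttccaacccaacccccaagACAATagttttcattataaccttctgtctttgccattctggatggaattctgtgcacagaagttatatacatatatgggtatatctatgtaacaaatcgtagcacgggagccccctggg
Cilp (chr9:65264930-65265229, plus strand): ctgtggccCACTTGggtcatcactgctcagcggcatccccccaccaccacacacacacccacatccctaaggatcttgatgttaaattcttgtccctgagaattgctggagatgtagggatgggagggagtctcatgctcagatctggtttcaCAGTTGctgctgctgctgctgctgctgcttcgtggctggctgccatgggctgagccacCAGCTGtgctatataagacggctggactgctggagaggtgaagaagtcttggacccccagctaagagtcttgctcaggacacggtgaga

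In these windows the SOX core had 1 match each in Sox5 and Tnmd and had 0 matches in the Sox6 and Cilp windows shown, against 31.0% of 32851 promoters of the same length that hold it. The E-box had 0 matches in Sox5 and Tnmd, 2 in Sox6 and 3 in Cilp, against 72.3% of promoters with at least 1. No match of the SOX core overlapped an E-box in these 4 windows. The Acan window, which is not shown, held 1 E-box and 0 SOX cores. Of the Sox6 windows not shown, those starting at 115995037, 115824661 and 115801560 held 2, 2 and 3 SOX cores. In the last of these 1 SOX core overlapped an E-box. The Sox6 windows starting at 116030998 and 115846091 held 0 SOX cores.

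Levels are given as CPM (counts divided by the size of the library after TMM scaling) and, for comparisons between genes, as CPM per kilobase of merged exons. Comp was the most abundant of the 9 genes in every group. Its mean level was 1581 ± 311 CPM per kilobase in batch A young (SD, n = 4), 1444 ± 300 in batch B young (n = 2), 586 ± 38.9 in batch B old (n = 2) and 1001 ± 135 in batch C old MSCs (n = 3). By CPM it ranked between 13 and 18 among all genes in the young libraries, 48 and 58 in batch B old, and between 13 and 22 in batch C old.

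Next came a group formed by Tnmd, Sox9 and Cilp, which changed places between groups of libraries. In batch A young MSCs the mean CPM per kilobase was 47.8 for Cilp, 41.8 for Tnmd and 31.8 for Sox9, with ranges that overlapped. In batch B old MSCs Cilp stood at 5.87 ± 0.935, below Sox9 at 24.6 ± 0.712 and Tnmd at 33.8 ± 14.8 CPM per kilobase (SD, n = 2 each). Scx followed with group means between 5.35 and 13.6 CPM per kilobase, and in batch B old MSCs it exceeded Cilp. Mkx (1.64 to 3.69), Acan (1.44 to 3.51) and Sox6 (1.08 to 2.06 CPM per kilobase) lay close together, and their ranges over the 11 libraries overlapped. Sox5 was the least abundant gene, with group means between 0.142 and 0.525 CPM per kilobase. With the longest transcript in place of merged exons, the mean over all libraries rose from 0.349 to 0.692 for Sox5 and from 1.72 to 2.94 for Sox6, which put Sox6 above Mkx and Acan and left Sox5 lowest.

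**Figure D1:**
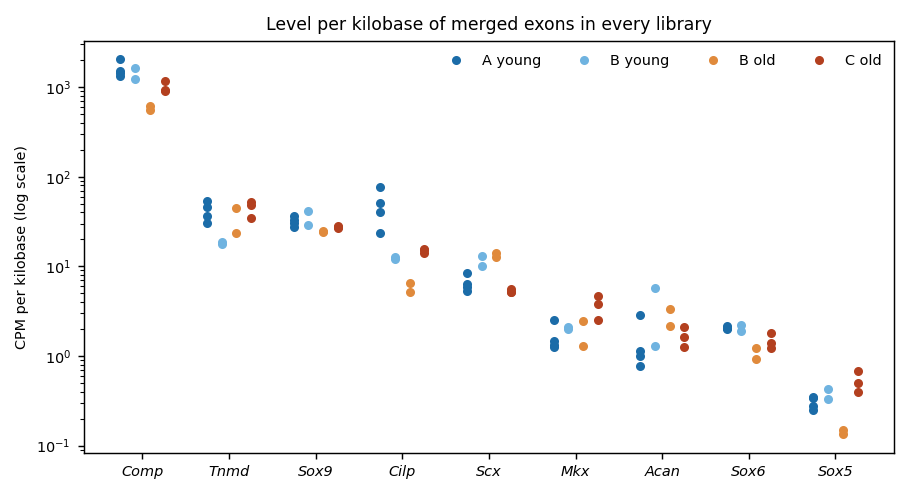
Level per kilobase of merged exons (CPM per kilobase, log scale) of the 9 genes, ordered by their mean over all libraries, with 1 point per library and colours for the 4 groups. Comp lies above the other genes in every library, and Sox5 lies lowest.

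Among the SOX genes, Sox9 was far above its partners. Ratios were taken from CPM per kilobase of merged exons and would be smaller with the longest transcript. The ratio of Sox9 to Sox5 was 86.6 to 120 in the 6 young libraries. It was 161 and 186 in batch B old and 39.9 to 67.3 in batch C old. These 3 ranges did not overlap. The ratio of Sox9 to Sox6 stayed between 13.9 and 26.3 over all libraries, and that of Sox6 to Sox5 was 5.14 to 9.19 in batches A and B and 2.62 to 3.13 in batch C. Sox5 was read shallowly, with 29 and 32 counts in old MSCs of batch B and at most 150 in any library.

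The cell type label was checked against marker genes. Col2a1, the main collagen of cartilage, was present at 358 to 1049 CPM, and Thbs4, a thrombospondin of tendon, at 984 to 4315 CPM. Hapln1, the link protein that ties aggrecan to hyaluronan, had group means of 12.3 to 54.8 CPM and Col10a1, the collagen of hypertrophic cartilage, of 2.96 to 15.6 CPM. Matn1, a matrilin of mature cartilage, had between 0 and 9 counts per library and Kera, keratocan, between 1 and 8. Col9a1 was at most 2.71 CPM. Defining markers of both lineages were therefore partly present at high levels and partly near 0. In a bulk sample fewer cells of a type and less RNA per cell cannot be told apart.

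Total counts per library were 11969336 to 20315934, which put the floor of 3 counts at 0.156 to 0.253 CPM. This floor covers counting error only. The deepest libraries were batch A young replicate 1 and batch B young replicate 1. Summed levels of other cell types were as follows. The 10 haematopoietic markers together had 567 to 1231 CPM in batch A young, 333 to 664 in batch B young, 679 to 980 in batch B old and 115 to 136 in batch C old, and 0 of them were at 0 throughout any group. The 6 adipocyte markers had 292 to 313 CPM in batch C and 92.6 to 160 CPM in the other groups. The 7 MSC surface markers lay between 2152 and 2732 CPM and the 7 osteoblast markers between 589 and 1120 CPM. Skeletal muscle markers reached at most 61.0 CPM, glial markers 17.7 CPM and endothelial markers 9.89 CPM in sum. The part of these cell types in the results below was not tested.

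The first comparison asked which genes differed between old and young MSCs. All 11 libraries entered the fit, which had a term for batch, so that the difference rests on batch B, with its 2 young and 2 old libraries. Comp, Sox5 and Sox6 fell in old MSCs, to 0.406, 0.372 and 0.524 of the young level. In the edgeR test 3 of 9 genes passed an adjusted p of 0.05, against 2.23% of the 16132 genes tested in either direction, 1.54% that fell and 0.694% that rose. The groups of batch B did not overlap for 6 of 9 genes, against 39.7% of all genes. Because the 9 genes were chosen with earlier results of these data known, their counts in this and the later comparisons are a description.

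Within batch B, Comp had 4912 and 3655 CPM in young and 1657 and 1820 CPM in old MSCs. Both old libraries lay far below both young ones. The log2 fold change was −1.30 ± 0.198 (SE, adjusted p = 0.00287). The call was kept in all 22 alternatives, with adjusted p between 1.2e-19 and 0.0430. In the libraries of the other batches Comp had 3994, 6044, 4245 and 4476 CPM (batch A young) and 2757, 3434 and 2723 CPM (batch C old). All 5 old libraries were below all 6 young libraries, which was true of 4.22% of the genes tested, while 2.73% had all old libraries above.

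Young MSCs of batch B had 32.9 and 28.1 CPM of Sox6, and old MSCs 13.6 and 18.4 CPM. Its log2 fold change was −0.93 ± 0.173 (adjusted p = 0.00932). Batch A young libraries were tightly grouped at 29.4, 31.9, 30.2 and 30.7 CPM, and batch C old libraries had 18.4, 26.6 and 20.6 CPM. Sox6 was the other gene of the 9 for which every old library lay below every young library. Without batch B young replicate 1 the adjusted p of Sox6 was 0.0655, without batch B old replicate 1 it was 0.155, and in batch B alone it was 0.0579, with the same direction each time.

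For Sox5 the young libraries of batch B gave 6.20 and 4.77 CPM and the old libraries 2.16 and 1.94 CPM, with a log2 fold change of −1.43 ± 0.293 (adjusted p = 0.0171). The old libraries of batch C did not share the low level and had 5.71, 9.82 and 7.11 CPM, above the 3.93, 4.98, 3.63 and 4.88 CPM of batch A young. Without the batch term the log2 fold change of Sox5 was 0.20 (adjusted p = 0.742). The Sox5 call was also lost when single libraries of batch B were left out, while its log2 fold change stayed between −1.60 and −1.22 over all libraries left out. The adjusted p was 0.124 without batch B young replicate 1, 0.117 without batch B old replicate 1, 0.105 without batch B old replicate 2, and 0.0634 in batch B alone.

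Sox9 did not pass the threshold. Its levels within batch B were 174 and 119 CPM when young and 99.7 and 104 CPM when old, a log2 fold change of −0.52 ± 0.156 (adjusted p = 0.0980). The groups did not overlap, but the young libraries differed from each other by more than the lower of them differed from the old. Without batch B young replicate 2 the value was −0.77 (adjusted p = 0.00375), and DESeq2 gave an adjusted p of 0.0425 with all libraries.

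Cilp also missed the threshold, with 51.7 and 53.5 CPM in the young libraries of batch B, 22.2 and 27.8 CPM in the old ones and a log2 fold change of −1.07 ± 0.346 (adjusted p = 0.125). The 2 young libraries agreed closely and both old libraries were lower. In batch A, which also enters the spread of this fit, Cilp varied between 101, 326, 172 and 215 CPM. In batch B alone the adjusted p of Cilp was 0.0161, without batch A young replicate 1 it was 0.0135, and without batch A young replicate 2 it was 0.0333.

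Tnmd was the one gene of the 9 with both old libraries of batch B above both young ones, at 31.7 and 59.9 against 25.3 and 23.8 CPM. The log2 fold change was 0.90 ± 0.280 (adjusted p = 0.113). Its value was 1.30 (adjusted p = 0.0430) without batch B old replicate 1, the lower of the old libraries, and 0.36 without batch B old replicate 2.

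For the remaining genes the groups overlapped. Acan was at 42.9 and 9.60 CPM (young) and at 24.9 and 16.0 CPM (old) within batch B, and its log2 fold change of −0.38 ± 0.544 (adjusted p = 0.779) turned to 1.09 without batch B young replicate 1. Scx had 20.3 and 26.1 CPM in young and 25.9 and 28.5 CPM in old MSCs (0.23 ± 0.185, adjusted p = 0.570). Mkx had 8.13 and 8.71 CPM in young and 5.32 and 10.0 CPM in old MSCs (−0.13 ± 0.340, adjusted p = 0.884).

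The haematopoietic markers moved together with this comparison. All 10 of 10 had a positive log2 fold change, with a median of 0.72 against 0.004 over all genes, and 0 passed the adjusted threshold in edgeR, 0 in limma-trend and 1 in DESeq2, while 5 had an unadjusted p under 0.05. Of 7 MSC surface markers 2 fell, Pdgfra (−0.86 ± 0.146, adjusted p = 0.00590) and Nt5e (−1.34 ± 0.248, adjusted p = 0.00932), with a summed level of 2732 CPM in both young and 2485 to 2512 CPM in both old libraries of batch B. Of 7 osteoblast markers 1 rose, the alkaline phosphatase gene Alpl (0.98 ± 0.150, adjusted p = 0.00287), and 6 had a positive value, with a median of 0.43. Their summed level was 670 to 989 CPM in young and 856 to 903 CPM in old MSCs of that batch. Pdgfra, Nt5e and Alpl were named after their values were seen. The calls of Pdgfra (adjusted p = 0.0912) and Nt5e (adjusted p = 0.128) were lost without batch B old replicate 1. The part of these markers in the lower Comp, Sox5 and Sox6 levels was not tested.

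**Figure D2:**
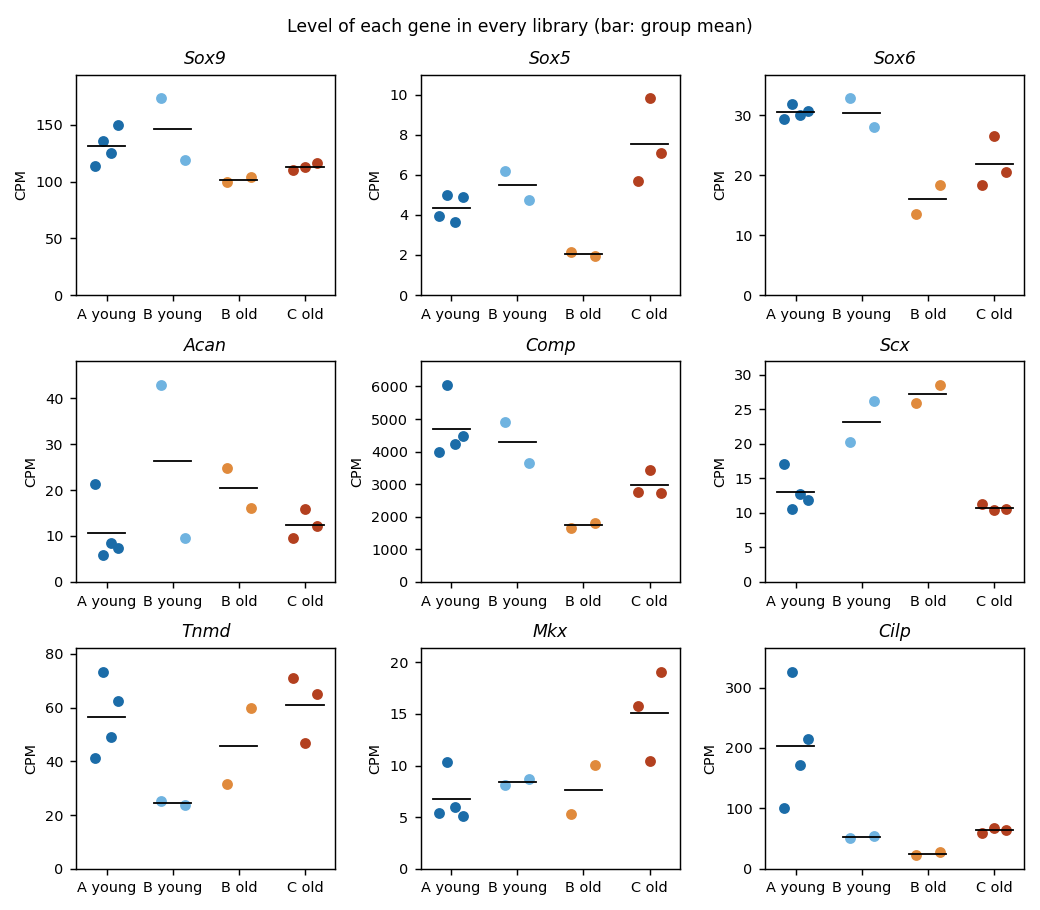
CPM of each of the 9 genes in every library (linear axis from 0), with 1 point per library in the 4 groups and a bar at the group mean. Comp and Sox6 are lower in all old than in all young libraries, while Sox5 is low in batch B old and high in batch C old MSCs, and Cilp is highest in batch A young MSCs.

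The second comparison asked how young MSCs differed between batches A and B, where age was the same. Scx rose and Tnmd and Cilp fell in batch B. These were 3 of 9 genes past the threshold, against 18.1% of 14840 genes tested, of which 9.39% were higher and 8.71% lower. The groups did not overlap for 3 of 9 genes, against 40.9% of all genes. Batch and anything else in which these libraries differed cannot be told apart here.

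Cilp had 101 to 326 CPM in batch A against 51.7 and 53.5 CPM in batch B. It was 3.81-fold lower in batch B (log2 fold change −1.93 ± 0.343, adjusted p = 0.00408), the strongest difference of the 9 genes between the young batches. Tnmd had 41.2, 73.3, 49.1 and 62.3 CPM in batch A, all above the 25.3 and 23.8 CPM of batch B (−1.18 ± 0.203, adjusted p = 0.00348). Scx went the other way, with 17.1, 10.6, 12.8 and 11.9 CPM in batch A and 20.3 and 26.1 CPM in batch B (0.84 ± 0.191, adjusted p = 0.0119). By CPM per kilobase of merged exons, the ratio of Tnmd to Scx was 3.58 to 10.3 in batch A young MSCs. In batch B young MSCs it was 1.35 and 1.85. Without batch B young replicate 2 the calls of Scx (0.64, adjusted p = 0.143) and Cilp (−1.95, adjusted p = 0.0575) were lost, while Tnmd was called whichever 1 of the 6 libraries was left out.

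The SOX genes and Comp gave small values between the young batches: 0.18 ± 0.160 for Sox9, 0.36 ± 0.230 for Sox5, 0.02 ± 0.126 for Sox6 and −0.11 ± 0.190 for Comp, with adjusted p from 0.290 to 0.930. Mkx was at 0.36 ± 0.261 (adjusted p = 0.363). Acan had 21.4, 5.83, 8.42 and 7.39 CPM in batch A and 42.9 and 9.60 CPM in batch B. In each batch 1 library stood far above the others, and these were the deepest libraries of the data set. The log2 fold change of Acan was 1.28 ± 0.495 (adjusted p = 0.0884), passed the threshold without batch A young replicate 1 (1.89, adjusted p = 0.00895), and was −0.17 without batch B young replicate 1. All 10 haematopoietic markers had a negative log2 fold change in this comparison, and 5 of them passed the threshold. Their part in the 3 calls was not tested.

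The third comparison asked how old MSCs differed between batches B and C. Here 7 of 9 genes passed the threshold, against 64.7% of 15651 genes tested, so that the share of the 9 genes was near that of all genes. Sox5, Sox6, Comp, Mkx and Cilp rose in batch C and Acan and Scx fell, with 32.1% of all genes higher and 32.6% lower. Groups did not overlap for 8 of 9 genes, against 76.3% of all genes. The old libraries of batch B served in this comparison and in the age comparison, so that the fall of Sox5, Sox6 and Comp with age and their rise in batch C are not separate observations.

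Sox5 rose most, by 1.87 ± 0.268 on the log2 scale (adjusted p = 7.05e-05), from the 2.16 and 1.94 CPM of batch B. Cilp had 59.9, 67.2 and 64.2 CPM in batch C, above the 22.2 and 27.8 CPM of batch B (1.35 ± 0.098, adjusted p = 2.57e-07). Comp rose by 0.77 ± 0.104 (adjusted p = 4.44e-05). Mkx had 15.8, 10.4 and 19.1 CPM in batch C, the highest group mean of this gene, against 5.32 and 10.0 CPM in batch B (0.97 ± 0.267, adjusted p = 0.00732).

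Scx had 11.3, 10.4 and 10.5 CPM in batch C against 25.9 and 28.5 CPM in batch B, a fall by 1.34 on the log2 scale (SE 0.102, adjusted p = 3.55e-07). Acan was at 9.48, 15.9 and 12.1 CPM in batch C and 24.9 and 16.0 CPM in batch B (−0.72 ± 0.208, adjusted p = 0.00952). The Acan call was lost without batch B old replicate 1 (adjusted p = 0.0944) and without batch C old replicate 1 (adjusted p = 0.0552). The value of Sox6 was 0.45 ± 0.164 (adjusted p = 0.0312), and its call was lost without batch B old replicate 1 (0.190), batch C old replicate 2 (0.120) or batch C old replicate 3 (adjusted p = 0.0561). Sox9 (0.15 ± 0.063, adjusted p = 0.0556) and Tnmd (0.41 ± 0.218, adjusted p = 0.121) were not called. Tnmd was called at 0.93 (adjusted p = 3.61e-05) without batch B old replicate 2 and at 0.58 (adjusted p = 0.0360) without batch C old replicate 2, and Sox9 at 0.18 (adjusted p = 0.0481) without batch C old replicate 1.

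**Figure D3:**
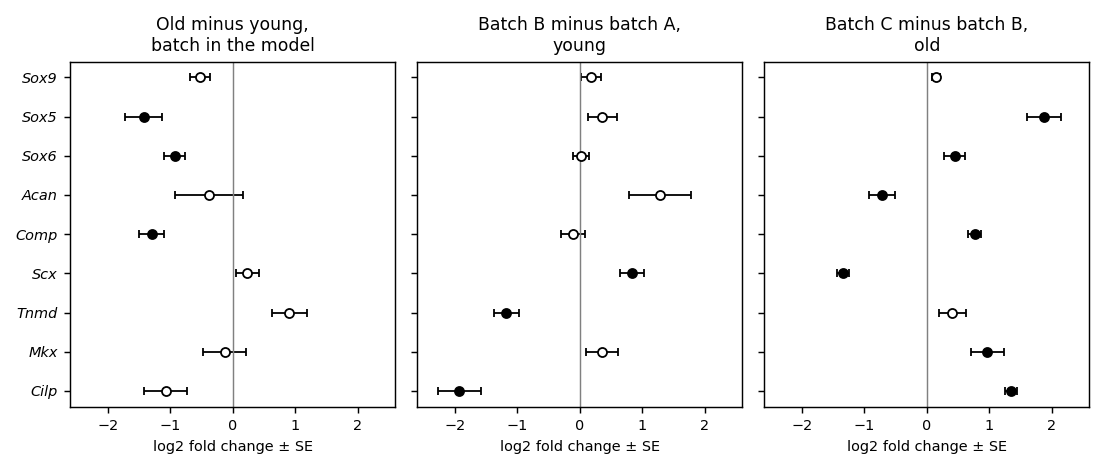
Log2 fold change ± SE of the 9 genes in the 3 comparisons, with filled points for an adjusted p under 0.05. In the age comparison Sox5, Sox6 and Comp are filled on the negative side, and in the comparison of the old batches the same genes are filled on the positive side, where the batch B old libraries serve in both.

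Transcript length moved with the comparison of old batches. Over all genes the median log2 fold change between batches C and B ran from −0.69 in the decile of genes with the shortest transcripts (median length 727 nt) to 0.52 in the decile with the longest (8102 nt). Sox5, Sox6 and Acan belong to the longest decile. After a correction for length and GC content, Sox6 was at −0.04 (adjusted p = 0.842) Sox5 was still called, and Acan, against the trend of its decile, was at −1.32 (adjusted p = 0.00011). All 10 haematopoietic markers were lower in batch C, all past the threshold, and 5 of the 6 adipocyte markers were higher. Their part in the calls was not tested. Between the young batches the median log2 fold change ran from 0.38 in the decile of lowest GC content to −0.26 in that of highest. Scx and Comp belong to the highest of these deciles, and Tnmd and Mkx to decile 2 from the lowest. Over the 15 alternatives of that comparison, which include the correction for length and GC content, Tnmd was called in all and Scx in 13.

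**Figure D4:**
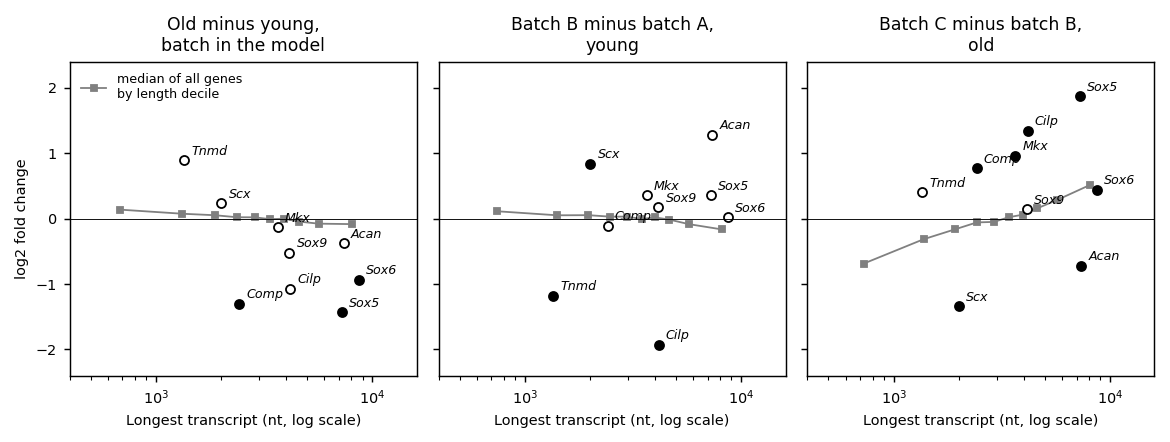
Log2 fold change of the 9 genes against the length of their longest transcript (nt, log scale) in the 3 comparisons, with filled points for an adjusted p under 0.05 and grey squares for the median of all genes in each length decile. The grey line spans a smaller range in the first and second comparison and climbs from −0.69 to 0.52 between batches B and C, where Sox6 lies close to it.

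Genes with a pattern most like that of each gene over the 11 libraries were found by the root mean square (RMS) distance between log2 CPM profiles centred on their means, among 16132 genes. The closest to Comp were Steap3, a metalloreductase (0.141), and P3h2, a collagen prolyl hydroxylase (0.199). Sox6 had Ndrg1 (0.141) and Rhobtb2 (0.158), Sox9 had Sulf2, an extracellular sulfatase (0.107), and Slc41a1 (0.121), and Sox5 had Plpp3 (0.211) and Gm27209 (0.239). Scx was closest to Kdelr3, a retention receptor of the secretory pathway (0.090), and Pgk1-rs7 (0.101), the latter a sequence related to Pgk1 whose reads may be shared with that gene. Tnmd had Cdh26 (0.221) and the endothelin receptor gene Ednra (0.252), and Mkx had Samd12 (0.204) and Zcwpw2 (0.211). Cilp was nearest to Sfrp2, a secreted Wnt modulator (0.379), and Tenm4 (0.381), and Acan to Tmem267 (0.452) and Foxq1 (0.506), the least close matches. Among the 9 genes themselves Sox6 and Comp were the closest pair, at a distance of 0.219, followed by Sox9 and Sox6 (0.271). The distance is not scaled by the spread of a gene, so genes that vary little lie close to many others. The RMS spread of a gene around its own mean was 0.226 for Sox9, 0.398 for Sox6, 0.554 for Comp and 1.136 for Cilp. Sox9 was thus closer to a flat profile than to Sox6. These distances are a description, since libraries of 1 batch share their background.

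Other genes of the same pathways were read from 6 wider lists, chosen with earlier results of these data known. Their counts beside the share of all genes are therefore a description. Of the cartilage matrix genes 19 of 20 were tested for age and 5 fell, against 1.54% of all genes, and 18 of 19 had a negative value, with a median log2 fold change of −0.67 against 0.004 over all genes. The genes that fell were Hapln1 (−1.40 ± 0.205), Prg4, which encodes the joint lubricant lubricin (−1.11 ± 0.206), Cnmd, which encodes chondromodulin, a relative of tenomodulin (−2.15 ± 0.429), Col11a2 (−2.38 ± 0.485) and Col9a1 (−2.74 ± 0.682). Their adjusted p lay between 0.00212 and 0.0474. Hapln1 was called whichever library was left out but not without the batch term (−0.67, adjusted p = 0.345), and Col9a1, the least abundant, lost the call in 13 of 22 alternatives. Within batch B, Hapln1 was at 48.2 and 61.4 CPM when young and at 19.2 and 22.5 CPM when old. The young libraries of batch B differed in Col11a2 (5.31 and 26.2 CPM), and its value was −0.80 (adjusted p = 0.205) without replicate 1. The count of 5 was 1 without batch B young replicate 1 or batch B old replicate 1, 2 without batch B old replicate 2, and 10 without batch B young replicate 2.

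In the other lists the counts stand against 2.23% of all genes called for age, of which 1.54% fell and 0.694% rose. Of 18 tendon genes tested, 1 was called and it fell. This was Fmod, which encodes fibromodulin, a collagen-binding proteoglycan (−0.86 ± 0.159, adjusted p = 0.00922). The old libraries of batch B had 2700 and 2747 CPM of Fmod and the young libraries 4101 and 5798 CPM. Among 14 chondrocyte regulators Runx3, a runt transcription factor, rose by 0.79 ± 0.190 (adjusted p = 0.0407), a call lost in 10 of 22 alternatives, 8 of which left out a library. Of 16 genes of chondroitin sulfate synthesis 2 fell, Xylt1, the xylosyltransferase that starts the chain (−1.03 ± 0.187), and Chst12, a chondroitin sulfotransferase (−0.51 ± 0.107). Of 8 hyaluronan genes Has2, the main hyaluronan synthase of connective tissue cells, rose by 0.74 ± 0.135 (adjusted p = 0.00895). Of 8 tested genes of the list of aggrecan and COMP proteases and their inhibitor Timp3, edgeR called 0, limma-trend 0 and DESeq2 2, and 5 had an unadjusted p under 0.05. The calls of Fmod, Runx3, Xylt1, Chst12 and Has2 were each lost when batch B old replicate 1 was left out, with adjusted p from 0.0729 to 0.329, and in that case the count was 0 in each of these 4 lists. Without batch B old replicate 2 Fmod (adjusted p = 0.0600) and Chst12 (0.150) also lost the call, and without batch B young replicate 1 Xylt1 (0.0694) and Chst12 (adjusted p = 0.0950).

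**Figure D5:**
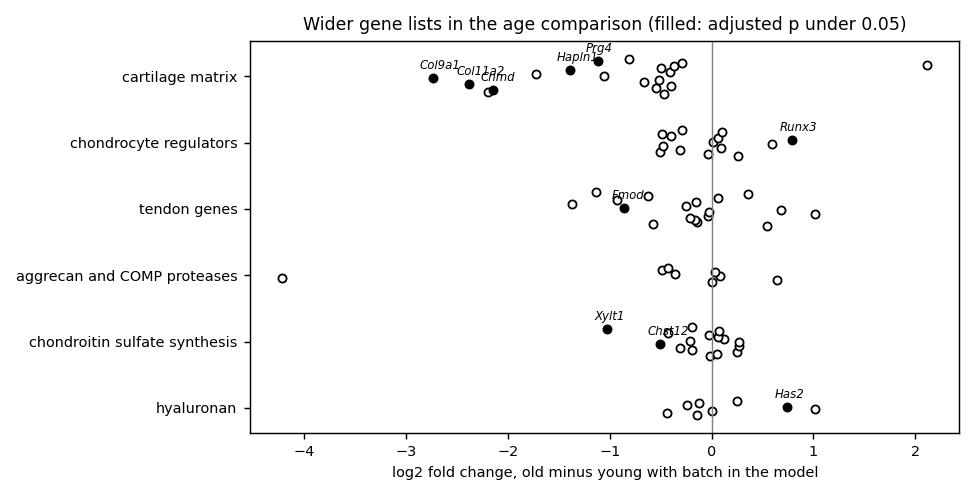
Log2 fold change of the tested genes of the 6 wider lists between old and young MSCs with batch in the model, with 1 point per gene, filled and named where the adjusted p was under 0.05. Of the cartilage matrix genes 18 of 19 lie below 0, while the other lists lie on both sides.

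Between the young batches, 6 of 17 cartilage matrix genes were called, 4 higher and 2 lower in batch B. Counts of all lists here stand against 18.1% of all genes called in either direction, 9.39% higher and 8.71% lower. Hapln1 rose by 2.17 ± 0.147 (adjusted p = 1.19e-05) and Col10a1 by 1.62 ± 0.268, while Cnmd fell by 1.24 and Epyc, an epiphycan proteoglycan, by 1.93 on the log2 scale. Has2 (1.22) and Vcan, the hyaluronan-binding proteoglycan versican (1.23), were among 3 of 8 hyaluronan genes that rose. Csgalnact2 (0.86) and Csgalnact1 (0.71), which add the first N-acetylgalactosamine of the chain, were among 5 of 16 chondroitin genes that rose, and Chpf (−0.44) was the 1 that fell. Adamts4, an aggrecanase, rose (1.11) and Timp3 fell (−0.46). Chondrocyte regulators were called in 5 of 14 cases, with Wwp2 (0.54) and Trps1 (0.41) higher and Runx2 (−0.51) and Sox13 (−0.92) among those lower. Of 17 tendon genes 3 fell, Egr1 (−0.83) and Fmod (−0.60) among them. Cnmd, Epyc, Vcan, Chpf, Timp3, Wwp2, Trps1, Runx2, Sox13, Egr1 and Fmod each lost the call when at least 1 of the libraries was left out.

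Between the old batches, 12 of 17 cartilage matrix genes were called, 9 of them higher in batch C, with a median log2 fold change of 1.29. Counts of lists in this comparison stand against 64.7% of all genes called in either direction, 32.1% higher and 32.6% lower. A count near the share for its own direction is no result about a list. Col27a1 rose by 2.38 ± 0.111 and Col9a2 by 2.72 ± 0.227, while Prg4 fell by 1.40 and Ucma by 1.35. Of 17 tendon genes 10 were called, 7 higher. Egr1, an early response transcription factor, showed the largest value among the named genes of the lists, 5.27 ± 0.104 (adjusted p = 3.71e-11), with 852 ± 27.6 CPM (SD, n = 3) in batch C against 22.0 ± 2.93 CPM (SD, n = 2) in batch B. Egr2 followed at 3.67, and Eya2 (−0.73) and Chodl (−2.20) fell. Chondrocyte regulators were called in 9 of 13 cases, with Fgfr3 (1.70) and Mef2c (1.23) higher and Bmpr1b (−1.92) and Wwp2 (−0.40) lower. Of 16 chondroitin genes 11 fell, with the smallest p for Csgalnact1 (−0.92) and Csgalnact2 (−0.59), and Xylt1 rose (0.51). Of the 7 proteases tested 6 were called, with Adamts9 (2.09) and Adamts1 (0.75) higher and Adamts4 (−0.43) lower. Of 8 hyaluronan genes 5 were called, Has3 (2.10) and Vcan (0.29) higher and Has2 (−0.59) and Cd44 (−0.61) among those lower. Vcan was not called without batch B old replicate 2 (adjusted p = 0.126) or batch C old replicate 3 (adjusted p = 0.0967).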

How the data were processed

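Polyadenylated RNA was sequenced in 11 MSC libraries. Raw, whole-number counts for each gene and library were deposited by the authors in 1 table, with no scaling. The labels' processing notes name the builds mm10 and GRCm38. Aligner, counter and use of strand are not given in the sources used here, so reads of overlapping or near-identical genes may have been shared or lost. Genes were matched to GENCODE M21 (GRCm38; 28179 of 28222 matched).

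The test was the quasi-likelihood F test (edgeR 4.0.16, R 4.3.3) with TMM factors, filterByExpr at its setting of 5 counts and Benjamini-Hochberg adjustment over all genes tested (threshold 0.05, two-sided). The SE of a log2 fold change is its size divided by the square root of F. Log2 CPM used a prior count of 2. All tests were also run on simulated counts drawn independently for each library, which cannot show whether the real replicates were independent. No 2 libraries agreed within sampling noise. Replicate numbers in the labels were not taken to pair the samples.

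Groups came from the labels. The members and lists were chosen with earlier results of these data known. Named were all 9 members, from each wider list up to 2 genes with the smallest p per direction among those called, every list gene called for age, and the 2 nearest profiles of each member. Alternatives were limma-trend (limma 3.58.1), DESeq2 1.42.0, total scaling, RLE factors, a filter at 10 counts or none, a length and GC correction (loess span 0.3), each library left out, the replicate number as a block, all 11 libraries, no batch term and batch B alone. The fit of batches A and B alone was chosen after seeing the data. Figures were drawn with matplotlib 3.10.9. Pthlh, Myf5 and Myog are not analysed here.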

Additional observations from a re-analysis of the deposited data

Results flagged for a closer look

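Among the 4 young libraries of batch A, the level of Acan in replicate 1 stood apart from the others, at 21.39 CPM against 5.83 to 8.42 CPM. Its gap to the next library exceeded the limit of Dixon's test at the 95% level. Chance flags about 1 in 20 groups, and 9 genes were examined in this group. Groups of 2 or 3 libraries were not tested. Batch A young replicate 1 was also the library with the largest total count. The part of depth in the Acan level was not tested.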

How the results depend on the processing

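For age, 3 of the 9 genes were called by edgeR with TMM, and 2 to 4 under limma-trend, DESeq2, RLE factors, total scaling, a minimum count of 10, the length and GC correction, no batch term, batch B alone and batches A and B alone. Without a filter on low counts 6 were called, with Sox9, Tnmd and Cilp added. Leaving out 1 library gave 1 to 4 calls for age, 2 to 4 between the young batches and 5 to 8 between the old batches, where a group left with 1 library was assumed to vary like the others. Total scaling gave 9 calls between the old batches and moved the median of all genes there from 0.02 to 0.22. With it, the share of higher genes among all calls was 62.9% instead of 49.6% between the old batches, 66.4% instead of 51.9% between the young batches and 44.8% instead of 31.1% for age. Over all genes, the 360 calls for age became 640 with DESeq2, 1094 without a filter, 2641 without the batch term, 123 in batch B alone and 174 in batches A and B alone, and leaving out 1 library gave 84 to 2007. Between the young batches the 2686 calls became 4171 in the fit of all 11 libraries and 729 with the replicate block, and leaving out 1 library gave 511 to 4031. Cartilage matrix calls for age were 10 without a filter, 2 without the batch term and 3 in batch B alone.

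With the replicate number as a block, the counts were 3 for age, 3 between the young batches and 7 between the old batches. For age the calls were those of Sox5, Sox6 and Comp. Between the young batches Acan (0.90, adjusted p = 0.0341) replaced Scx (0.78, adjusted p = 0.0732). Same-numbered libraries showed little shared deviation, with correlations of −0.111 to 0.037, and the numbers were taken as names only. With so few libraries per group, these correlations cannot exclude a pairing.

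The direction of some genes turned. For age, Sox5 was at 0.20, Mkx at 0.75 and Pdgfra at 0.135 without the batch term, Mkx ranged from −0.66 to 0.26 and Acan from −1.07 to 1.09 over the libraries left out. Between the young batches Comp was at 0.13 with the length and GC correction and Sox6 at −0.001 in the fit of all 11 libraries, and over the libraries left out Sox9 ranged from −0.12 to 0.43, Sox6 from −0.10 to 0.13, Acan from −0.17 to 1.98 and Comp from −0.34 to 0.088. Between the old batches the length and GC correction turned Sox6 to −0.037, Xylt1 to −0.12 and Vcan to −0.31. Of these, Sox5 and Pdgfra for age and Sox6, Xylt1 and Vcan between the old batches were called in the main test. In the fit of all 11 libraries Acan lost the call between the old batches (adjusted p = 0.252), and with DESeq2 Mkx lost it (adjusted p = 0.0617). The cause was not tested. Low counts limit the precision of Sox5, Col9a1, Matn1 and Kera.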
